A study of Macaca mulatta and Mus musculus and Rattus norvegicus with 12 samples.

Results

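The comparison of calvaria with tibia was made in mouse and in rhesus macaque, and the results below are the genes for which the 2 species gave different answers. It rests on 10 of the 12 libraries of the series, all made from poly(A)+ RNA of bone enriched for osteocytes. The mouse libraries came from female C57BL6 animals of 4 months, with 2 of calvaria (M4 and M8) and 2 of tibia (M5 and M7), each pooled from 3 mice. The macaque libraries were 3 of calvaria (G1, G3 and T1) and 3 of tibia (G2, G4 and T2), each from 1 female animal. By the methods of the study they form 3 pairs of skull and tibia from individual animals, and the mouse libraries form 2 such pairs of pools. The labels do not name the pairs, and the main fit did not use them. The sample labels give the macaque age as 4 to 6 months, whereas the methods of the study give the same figures in years. The other 2 libraries are rat (female Wistar, 6 months, 1 calvaria and 1 tibia, each pooled from 2 animals) and are set beside the results without a test. Rodent tibias were spun to clear the marrow and rodent calvariae were cut away from sutures and marrow spaces, whereas macaque bone was sawn. All bone was scraped free of periosteum and treated with collagenase. Mouse and macaque libraries were run on different lanes (3 and 4) and counted on different genomes and annotations, so that species, lane, dissection and annotation cannot be told apart in any difference given here.

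Osteocytes are the cells buried in mineralised bone, derived from osteoblasts, and they sense load and release factors that set the balance of bone formation and resorption. The tibia forms on a cartilage template and bears the load of the limb, while the vault of the skull forms directly from mesenchyme and is little loaded. The bone of either site also holds vessels, marrow, fat and surface cells, whose RNA enters a bulk library. In such libraries fewer cells of a type and less RNA per cell cannot be told apart.

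Of 38599 mouse and 28641 macaque gene symbols, 10028 were shared as printed, and 6070 of these had a mean of at least 10 reads per library in each species and were tested. These tested genes held 4645700 to 8484769 reads per library, with more in every mouse library than in any macaque library. Levels below are normalised CPM, the reads of a gene per 1000000 reads on the tested genes of the library, scaled within each species. Each species was counted on its own table, so levels are compared between sites and never between species. The site change is the log2 ratio of calvaria over tibia, and the difference is the macaque site change minus the mouse site change, so that a positive difference marks a gene whose calvaria level was relatively higher in macaque. A gene was called where edgeR's quasi-likelihood test of the difference gave a Benjamini-Hochberg adjusted p under 0.2 and a ratio over 1.1, the thresholds of the study. All adjusted p-values below come from this test, and values after ± on the log2 scale are standard errors. The osteocyte markers DMP1, MEPE and PHEX were read in every library. Among mouse libraries the 2 calvariae were less alike (r = 0.924 over log2 CPM of the tested genes) than the 2 tibias (r = 0.988), and M4 correlated better with either tibia (0.957) than with M8. Macaque libraries of the same site correlated with r of 0.952 to 0.980 and those of different sites with 0.901 to 0.951.

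The site change differed between mouse and macaque in 494 of the 6070 genes (8.14%). Of these, 329 were positive (5.42% of the genes tested) and 165 negative (2.72%), and 81 genes (1.33%) had an adjusted p under 0.05. The called differences had a median size of 1.48 on the log2 scale, against 0.40 over all tested genes, and the median standard error of a difference was 0.41. In 480 of the 494 genes every one of the 9 macaque calvaria to tibia ratios lay beyond all 4 mouse ratios, as it did in 17.5% of all genes tested. The ratios combine the same 10 libraries by which the 494 genes were chosen, so this count is no separate support for the calls. Assuming the pairs of skull and tibia that consecutive library numbers give, a fit with a replicate block called 790 genes, 545 of them positive. Without any scaling other than the library size 499 genes were called and the share of positive ones was 76.4% rather than 66.6%. The count moved with each library left out (the plot of called genes by library left out): it was 43 without M5, 103 without M7, 154 without G2, 200 without G4, 248 without T1, 256 without G1, 303 without G3, 812 without M4, 903 without T2 and 1141 without M8. In all 10 of these fits 40 of the 494 genes were called, 35 positive and 5 negative.

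**Figure D1:**
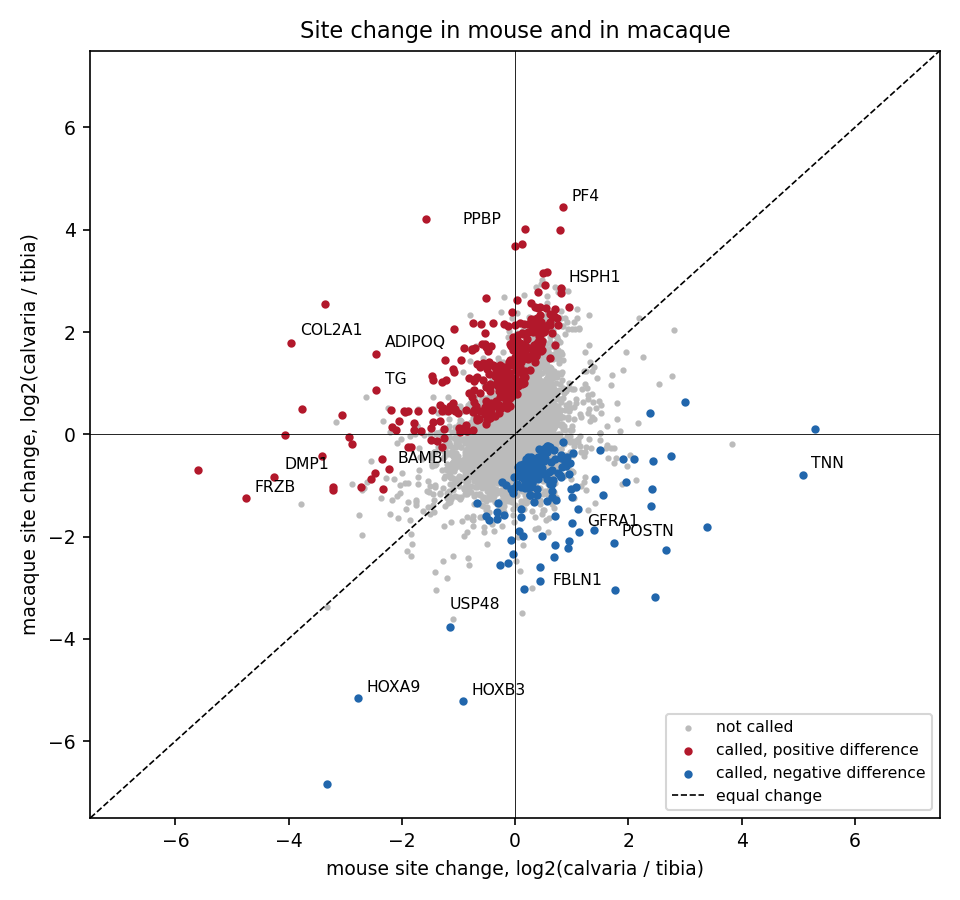
Site change in macaque (vertical axis, log2 of calvaria over tibia) against site change in mouse (horizontal axis, same unit) for the tested genes with more than 3 reads in some library of every group. Grey points are genes not called, red and blue points are called genes with a positive or a negative difference, and the dashed line marks equal changes; called genes lie away from the line, and most of them left of or above it.

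Fitted site changes had opposite signs in 320 of the 494 genes. They had the same sign and a larger size in macaque in 144, and the same sign and a larger size in mouse in 30. Signs were taken whether or not a change was called, and choosing genes by a large difference favours opposite signs. The share of opposite signs over all tested genes was not computed. Taken by the site test within each species, from the same fit, 382 of the 494 genes were called between sites in macaque and not in mouse, 51 in mouse and not in macaque, 28 in both and 33 in neither. That test called 2013 genes (33.2%) in macaque and 172 (2.83%) in mouse. The standard errors behind these counts differed less, with a median of 0.26 for a macaque site change and 0.31 for a mouse one. Of the 28 genes called in both, 15 changed in opposite directions and 13 in the same direction.

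Osteocyte products were the first group. Of 14 markers in the list 8 were tested, and 3 were called, all with a positive difference (37.5%, beside 5.42% of all genes tested): DMP1, PHEX and TNFRSF11B. The median difference of the 8 was 1.12, against 0.01 over all tested genes. DMP1 encodes a matrix protein that osteocytes secrete and that promotes mineralisation (mouse chromosome 5, 104202613 to 104214102, + strand, GRCm38). Its level in mouse was 277 and 160 CPM in calvariae and 1584 and 1649 CPM in tibias. In macaque it was 251, 316 and 303 CPM in calvariae and 329, 406 and 252 CPM in tibias. The mouse sites did not overlap and the macaque sites did. The site change was -2.89 ± 0.30 in mouse and -0.18 ± 0.23 in macaque, a difference of 2.71 ± 0.37 (edgeR adjusted p = 0.0127). DMP1 was called in every fit without 1 library.

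PHEX, an endopeptidase of osteocytes that keeps phosphate in balance, had 108 and 69.4 CPM in mouse calvariae and 228 and 257 CPM in mouse tibias. In macaque the values were 52.0, 59.7 and 36.0 CPM in calvariae and 38.0, 38.3 and 48.7 CPM in tibias. Mouse tibias lay above mouse calvariae, whereas the macaque sites overlapped, and the difference was 1.69 ± 0.36 (edgeR adjusted p = 0.0531). TNFRSF11B, or osteoprotegerin, the soluble decoy for RANKL that restrains osteoclasts, had 12.6 and 5.93 CPM in mouse calvariae, 49.6 and 55.0 CPM in mouse tibias, 23.9, 23.5 and 42.6 CPM in macaque calvariae and 46.3, 40.7 and 64.3 CPM in macaque tibias. Its macaque sites overlapped through T1, both site changes were negative, and its difference was 1.73 ± 0.53 (edgeR adjusted p = 0.141). The calls were lost without M5 or M7 for PHEX, and also without G2, G4 or T1 for TNFRSF11B, and the list had 1 call without M5 or M7 and 5 without T2 or with a replicate block for the assumed pairs. MEPE, a matrix phosphoglycoprotein of osteocytes, was not called, with a site change of -1.75 ± 0.41 in mouse and -1.38 ± 0.33 in macaque. Over the 8 genes the summed level was 1191 to 1856 CPM in mouse calvariae and 4375 to 5376 CPM in mouse tibias. In macaque it was 9391 to 10526 CPM in calvariae and 13849 to 30293 CPM in tibias. MEPE made up most of the macaque sum, with 36748 to 44294 reads in calvariae and 73130 to 151125 in tibias.

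The matrix and differentiation genes of osteoblasts gave no call among 24 tested with edgeR's quasi-likelihood test, with DESeq2 or with limma voom, and none had an unadjusted p under 0.05. They included COL1A1 (difference -0.52), the main chain of bone collagen, RUNX2 (-0.30), the transcription factor that starts the lineage, and BGLAP (0.49), which encodes osteocalcin. Their median difference was -0.29, and it ran from -0.67 to 0.56 in the fits without 1 library. Summed, they had 140231 CPM in M4 against 57186 CPM in M8, and 72206 to 253275 CPM in macaque tibias. The absence of a call therefore does not show that the site changes were equal. The 12 osteoclast genes also gave no call and no unadjusted p under 0.05, and the sign of their median difference (-0.02) turned with library size alone (0.08), with the replicate block (0.08) and without M4 (0.39), M7 (0.06) or T2 (0.41). Among 18 mechanosensing genes there was no call with the same test and with limma voom, 1 unadjusted p under 0.05, and 1 call with DESeq2 or with the replicate block.

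In the Wnt pathway secreted ligands bind Frizzled and LRP receptors to stabilise beta-catenin, and soluble antagonists hold the signal back in bone. Of 8 secreted antagonists tested 1 was called as positive, beside 5.42% of all genes tested. It was FRZB (mouse chromosome 2, 80411970 to 80447625, - strand), which binds Wnt ligands. FRZB had 5.69 and 2.22 CPM in mouse calvariae and 109 and 108 CPM in mouse tibias. In macaque it had 169, 155 and 373 CPM in calvariae and 595, 683 and 371 CPM in tibias, where T1 and T2 were level and the other tibias stood above the other calvariae. It was lower in calvariae of both species, by -4.75 ± 0.56 in mouse and -1.24 ± 0.37 in macaque, with a difference of 3.51 ± 0.64 (edgeR adjusted p = 0.0392), and it was called in every fit without 1 library. DKK1, which blocks the LRP receptors, had a site change of -1.55 ± 0.36 in mouse and -1.11 ± 0.29 in macaque, and its difference of 0.44 ± 0.46 was not called (edgeR adjusted p = 0.702). SOST and TPBG were not among the symbols shared as printed. With macaque locus names replaced by symbols from a newer annotation, SOST, the osteocyte antagonist sclerostin, had site changes of -2.84 in mouse and -1.53 in macaque and was not called (difference 1.32 ± 0.56, edgeR adjusted p = 0.290). TPBG, a membrane inhibitor of Wnt receptors, was not called either (0.61 ± 0.32, edgeR adjusted p = 0.394). Of 60 ligands, receptors and feedback targets in the list 20 were tested. None was called with the same test or limma voom, 2 had an unadjusted p under 0.05, and DESeq2 and the replicate block called 1 each. WNT10B, reached only with locus names replaced, was called as negative (difference -2.98 ± 0.57, edgeR adjusted p = 0.042). Of 37 FGF ligands, receptors and feedback genes in the list only 8 were tested. For these the count was 0 with edgeR's quasi-likelihood test or limma voom. It was 2 for an unadjusted p under 0.05, for DESeq2 and for the replicate block. FGF18, reached only with locus names replaced, was called as positive (difference 3.74 ± 1.05, edgeR adjusted p = 0.125), with 59 reads or fewer in each library.

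BMP and TGF-beta ligands act through serine kinase receptors and SMAD proteins, and ID genes are among their targets. Of 33 members tested 3 had a positive call (9.09%) and 1 a negative call (3.03%), near the 5.42% and 2.72% of all genes tested, and the values below describe single genes. With the replicate block there were 5 and 2. BAMBI, a receptor-like protein without a kinase that dampens the signal, had 55.4 and 37.7 CPM in mouse calvariae and 186 and 248 CPM in mouse tibias. Macaque libraries had 899, 860.4 and 762 CPM in calvariae and 1405, 1456 and 1182 CPM in tibias. Both species had more in every tibia than in any calvaria, and the mouse change was the larger one (difference 1.54 ± 0.30, edgeR adjusted p = 0.0447). ID4, an inhibitor of helix-loop-helix factors, followed the same order with 23.1 and 14.1 CPM in mouse calvariae, 98.8 and 91.6 CPM in mouse tibias, 55.2 to 62.5 CPM in macaque calvariae and 68.8 to 90.5 CPM in macaque tibias (difference 1.88 ± 0.33, edgeR adjusted p = 0.0347). The ligand BMP4 went the other way. It had 34.8 and 31.6 CPM in mouse calvariae, 49.7 and 45.1 CPM in mouse tibias, 25.2, 23.3 and 30.3 CPM in macaque calvariae and 92.0, 80.8 and 65.6 CPM in macaque tibias, so that its lower calvaria level was more marked in macaque (difference -1.08 ± 0.31, edgeR adjusted p = 0.128). The call of BMP4 was lost without M5, M7, G1, G2, G3 or G4. The receptor BMPR1B was called as positive but had 3 reads or fewer in all libraries of a group, so no size is given.

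HOX genes specify position along the body axis and are used in limbs, and the skull vault forms outside their domain. All 8 tested HOX genes were lower in calvariae than in tibias in both species. Negative differences were called for 3 of them (HOXA9, HOXB3 and HOXA5), beside 2.72% of all genes tested. HOXA9 had 4.05 and 9.34 CPM in mouse calvariae, 43.5 and 47.6 CPM in mouse tibias, 2.11, 3.39 and 2.12 CPM in macaque calvariae and 95.8, 96.3 and 82.7 CPM in macaque tibias. No library of one site reached the other, and the gap was wider in macaque (difference -2.39 ± 0.49, edgeR adjusted p = 0.0447). HOXB3 was read in mouse calvariae at 2.28 and 5.63 CPM and in mouse tibias at 8.67 and 6.17 CPM, while macaque calvariae had 0, 4 and 4 reads and macaque tibias 123, 106 and 131 reads (difference -4.29 ± 0.91, edgeR adjusted p = 0.0495). HOXA5 had 14 and 24 reads in mouse calvariae, 242 and 193 in mouse tibias, 9, 1 and 3 in macaque calvariae and 709, 770 and 236 in macaque tibias (difference -3.52 ± 0.98, edgeR adjusted p = 0.122). The calls were lost without M5 for HOXA9, without M5 or M7 for HOXB3, and without M5, M7, G2, G3, G4 or T1 for HOXA5. In 4 of the 8 HOX genes a group had 3 reads or fewer throughout, so the list is given by counts alone.

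Of the 10 genes of cranial patterning tested, FOXC2 was called positive and ALX1 negative, beside 5.42% and 2.72% of all genes tested. FOXC2, a forkhead factor, had 13.9 and 10.8 CPM in mouse calvariae and 25.0 and 22.8 CPM in mouse tibias. The macaque values were 6.77, 8.82 and 7.42 CPM in calvariae and 1.51, 1.79 and 4.92 CPM in tibias, so the order of the sites was turned round (difference 2.41 ± 0.66, edgeR adjusted p = 0.118). The mouse site change of FOXC2 by itself was not called, and the call of its difference was lost without M5, M7, G2 or G4. ALX1, a homeobox factor of the face, had 149 and 26 reads in mouse calvariae against 14 and 15 in mouse tibias, and 3, 0 and 12 reads in macaque calvariae against 52, 27 and 4 in macaque tibias. Its macaque sites overlapped, and its difference of -4.94 ± 1.60 (edgeR adjusted p = 0.164) was no longer called without M4, M5, M7, G1, G2, G3 or G4, with the replicate block for the assumed pairs (edgeR adjusted p = 0.215), or with limma voom (adjusted p = 0.274). IRX1, the 1 gene called of 9 limb patterning factors, had 50 and 9 reads in mouse calvariae, 0 and 1 in mouse tibias, 1, 3 and 7 in macaque calvariae and 10, 17 and 26 in macaque tibias, and its call was lost without M5.

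**Figure D2:**
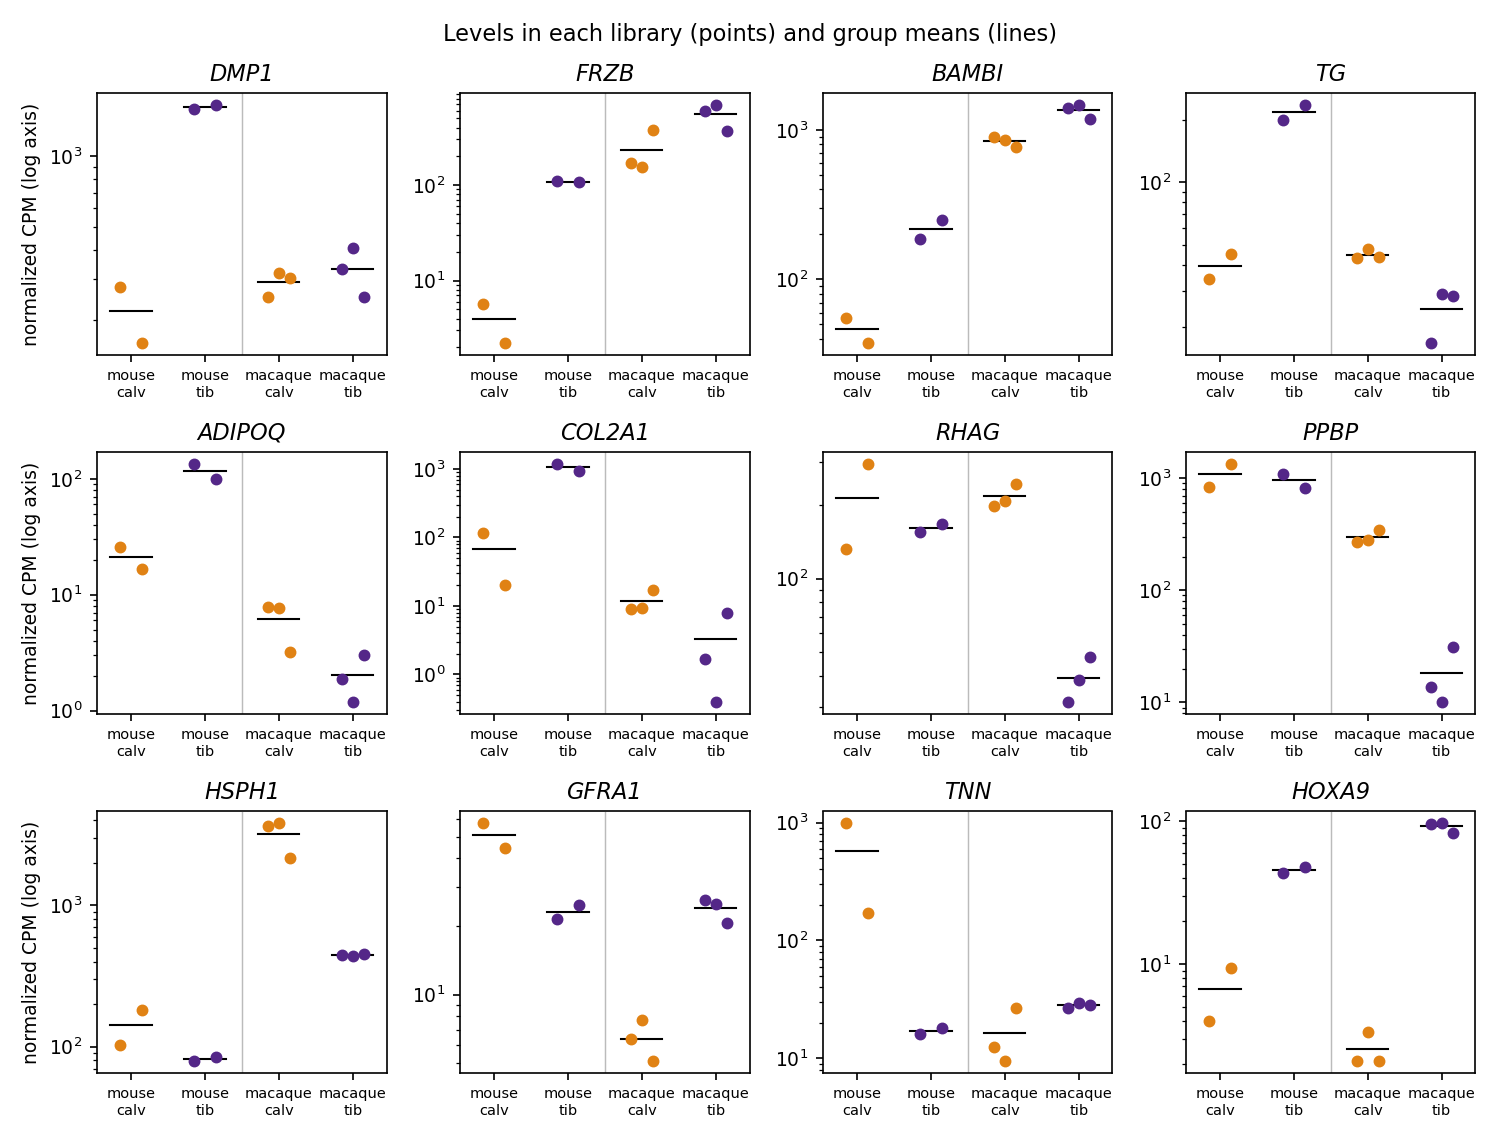
Level of 12 genes in each library (points, normalised CPM on a log axis with its own range per gene) with the group mean as a line, for calvaria (orange) and tibia (purple) of mouse and macaque. DMP1, FRZB and BAMBI were lower in mouse calvariae by more than in macaque, TG, ADIPOQ and COL2A1 had opposite orders in the species, RHAG, PPBP and HSPH1 were separated by site mainly in macaque, and GFRA1, TNN and HOXA9 had negative differences.

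The gene with the smallest p was TG, thyroglobulin, the precursor of thyroid hormone in the thyroid (mouse chromosome 15, 66670753 to 66850721, + strand). It had 34.3 and 45.1 CPM in mouse calvariae and 199 and 234 CPM in mouse tibias, but 43.1, 47.5 and 43.7 CPM in macaque calvariae and 16.8, 28.8 and 28.1 CPM in macaque tibias. The sites did not overlap in either species and stood in opposite orders. The site change was -2.45 ± 0.28 in mouse and 0.86 ± 0.22 in macaque, with a difference of 3.31 ± 0.35 (edgeR adjusted p = 0.00619). Reads were counted without strand and an exon of the opposite strand, of Gm17140, overlaps TG in mouse, so the reads of the pair cannot be told apart. In mouse the hypoxia-responsive gene NDRG1 lies downstream of TG on the same chromosome, from 66929318. NDRG1 had 462 and 481 CPM in mouse calvariae, 2631 and 3607 CPM in mouse tibias, 404, 434 and 410.5 CPM in macaque calvariae and 1056, 956 and 541 CPM in macaque tibias. It was lower in calvariae of both species and more so in mouse (difference 1.69 ± 0.38, edgeR adjusted p = 0.0574), a call that was lost without M7.

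Adipocyte genes had positive differences in 5 of 6 tested. Of the 6, 4 were called as positive (66.7%, beside 5.42% of all genes tested): ADIPOQ, FABP4, AQP7 and CD36. The median site change was -1.24 in mouse and 0.35 in macaque. ADIPOQ, the fat hormone adiponectin (mouse chromosome 16, 23146536 to 23158028, + strand), had 25.7 and 16.8 CPM in mouse calvariae and 133 and 98.8 CPM in mouse tibias. In macaque it had 7.82, 7.69 and 3.18 CPM in calvariae and 1.89, 1.19 and 3.05 CPM in tibias. The order of the sites was opposite, without overlap in either species, although T1 and T2 were close (difference 4.02 ± 0.62, edgeR adjusted p = 0.0207). FABP4, a fatty acid carrier, had 973 and 365 CPM in mouse calvariae, 1982 and 1738 CPM in mouse tibias, 3322, 4580.2 and 2933 CPM in macaque calvariae and 1237, 1182 and 2502 CPM in macaque tibias (difference 2.61 ± 0.61, edgeR adjusted p = 0.0684). AQP7, a glycerol channel, had 0 and 4 reads in mouse calvariae and 50 and 33 in mouse tibias, against 6 to 15 reads in macaque calvariae and 5 to 20 in macaque tibias. The calls were lost without M5 for FABP4 and without M5, M7, G2, G3, G4 or T1 for AQP7, whose difference of 4.05 became 7.92 without M8. The fatty acid transporter CD36 had a difference of 1.13. The summed level of the 6 genes was 1118 to 1816 CPM in mouse calvariae, 2838 to 3410 CPM in mouse tibias, 2962 to 4613 CPM in macaque calvariae and 1215 to 2536 CPM in macaque tibias. Left-out libraries moved the number of called adipocyte genes between 1 (without M5) and 4, with 2 without M7, G2 or T1.

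Of 25 chondrocyte genes in the list 5 were tested. COL2A1, the collagen of cartilage, was the 1 gene called of these 5, beside positive calls in 5.42% of all genes tested. It had 115 and 20.3 CPM in mouse calvariae and 1165 and 934 CPM in mouse tibias. Macaque levels were 9.09, 9.27 and 17 CPM in calvariae and 1.70, 0.397 and 7.80 CPM in tibias. The macaque tibias had only 9, 2 and 46 reads, so the macaque change rests on few reads. Mouse tibias stood far above every mouse calvaria, while in macaque the calvariae were the higher site (difference 5.73 ± 1.14, edgeR adjusted p = 0.0447). It was called in every fit without 1 library. Its macaque site change by itself, 1.78 ± 0.80, passed the site threshold of 0.2 with an edgeR adjusted p of 0.168. With locus names replaced, CHAD (difference 5.38 ± 1.20, edgeR adjusted p = 0.059) and COL10A1 (3.54 ± 0.92, edgeR adjusted p = 0.104) were also called as positive. Both had few reads in some libraries.

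Genes of blood and marrow cells made up a further group, and in each of 5 lists all calls were positive. The calls numbered 6 of 14 neutrophil granule genes, 7 of 20 erythroid genes, 4 of 7 B cell genes, 4 of 12 megakaryocyte and platelet genes and 3 of 12 macrophage and monocyte genes, beside 5.42% of all genes tested. In macaque the median site change was 1.83 for neutrophil granule, 1.73 for erythroid and 1.65 for B cell genes, and in mouse it was 0.55, 0.44 and 0.11. For these 3 lists calvariae had the higher median in both species, by more in macaque. The medians were 0.26 in mouse and 0.78 in macaque for megakaryocyte and platelet genes, and -0.13 and 0.28 for macrophage and monocyte genes. The summed neutrophil granule level was 68160 to 111876 CPM in macaque calvariae and 14185 to 28744 CPM in macaque tibias. In mouse the 2 sites had 181482 to 237422 and 111606 to 126378 CPM. The summed erythroid level was 5435 to 6632 CPM in macaque calvariae and 1501 to 2008 CPM in macaque tibias, against 4927 and 11417 CPM in the mouse calvariae M4 and M8 and 5733 to 6029 CPM in mouse tibias. M8 thus stood apart from M4 for these genes.

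RHAG, an ammonia channel of the red cell membrane, had 132 and 294 CPM in mouse calvariae, 156 and 167 CPM in mouse tibias, 199, 208 and 243 CPM in macaque calvariae and 31.4, 38.7 and 47.6 CPM in macaque tibias (difference 2.07 ± 0.42, edgeR adjusted p = 0.0447). Every macaque calvaria lay above every macaque tibia for RHAG, while its mouse sites overlapped. EPOR, the erythropoietin receptor, differed by 1.66 ± 0.38 (edgeR adjusted p = 0.0658). The call of RHAG was lost without M5 and that of EPOR without M5 or M7. Called erythroid genes also included ALAS2, UROD and SLC25A37 of the haem pathway and HEMGN, with differences of 1.31 to 2.05.

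The platelet chemokine PPBP had the largest difference between the species of the blood genes described here (mouse chromosome 5, 90768518 to 90770063, + strand). It had 843 and 1328 CPM in mouse calvariae and 1100.3 and 816 CPM in mouse tibias, which overlapped. Macaque libraries had 271, 283 and 344 CPM in calvariae and 13.8, 10.1 and 31.0 CPM in tibias (difference 3.84 ± 0.56, edgeR adjusted p = 0.0187). PF4, another platelet chemokine, had 822 and 974 CPM in mouse calvariae, 572 and 429.8 CPM in mouse tibias, 111, 134 and 222 CPM in macaque calvariae and 3.02, 5.56 and 12.5 CPM in macaque tibias (difference 3.61 ± 0.62, edgeR adjusted p = 0.0335). The site change of PF4 was 0.84 ± 0.45 in mouse, which was not called, and 4.45 ± 0.45 in macaque. ITGA2B, the platelet integrin, had 330.1 and 339 CPM in mouse calvariae, 287 and 223 CPM in mouse tibias, 38.9, 39.3 and 52.4 CPM in macaque calvariae and 8.69 to 9.53 CPM in macaque tibias (difference 1.88 ± 0.28, edgeR adjusted p = 0.0187). These 3 genes were called in every fit without 1 library.

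Among neutrophil genes PADI4, which citrullinates histones, had 90.8 and 190.0 CPM in mouse calvariae, 96.4 and 95.4 CPM in mouse tibias, 171, 182 and 276 CPM in macaque calvariae and 31.2, 24.6 and 57.8 CPM in macaque tibias (difference 1.92 ± 0.55, edgeR adjusted p = 0.128). The integrin ITGAM and the granule proteoglycan SRGN differed by 1.64 ± 0.49 (edgeR adjusted p = 0.137) and 1.39 ± 0.42 (edgeR adjusted p = 0.141), and S100A8, S100A9 and CAMP by 1.53, 1.96 and 1.74. Of the B cell genes BANK1, an adaptor of B cell receptor signals, had 23.8 and 34.2 CPM in mouse calvariae and 62.2 CPM in both mouse tibias, but 18.6, 20.8 and 23.7 CPM in macaque calvariae and 11.1, 5.16 and 9.66 CPM in macaque tibias. The orders were opposite, with a difference of 2.38 ± 0.46 (edgeR adjusted p = 0.0447), although the mouse site change by itself was not called. The adaptor BLNK, the surface protein MS4A1 (CD20) and VPREB1 of the pre-B cell receptor differed by 1.48, 1.96 and 3.19. HMOX1, which degrades haem, differed by 2.24 ± 0.51 (edgeR adjusted p = 0.0658), AIF1 by 1.46 ± 0.40 (edgeR adjusted p = 0.117) and the adhesion protein VCAM1 by 1.41 ± 0.40 (edgeR adjusted p = 0.128). Of these genes BANK1 lost the call without M5, HMOX1 without M5 or M7, and PADI4, ITGAM, SRGN, BLNK, MS4A1, AIF1 and VCAM1 in 5 to 8 of the 10 fits without 1 library, those without M5 and M7 among them. The counts depended on libraries, and with the replicate block they were 10 for neutrophil and 7 for B cell genes. Neutrophil calls numbered 0 without M5, M7, G2, G4 or T1, 2 without M4 or G3, 3 without G1, 11 without T2 and 12 without M8. Erythroid calls numbered 1 without M5, 2 without M7, 3 without G2, 4 without G4 or T1 and 16 without M8. B cell calls numbered 0 without M5, 1 without M7 or G4 and 2 without G1, G2, G3 or T1. Macrophage calls numbered 0 without M5 or M7 and 1 without G2, G3 or G4, and megakaryocyte calls 3 to 5 except for 7 without M8.

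Cell cycle and DNA replication genes gave 13 positive calls of 35 tested (37.1%, beside 5.42% of all genes tested) and no negative one. Of the 35 differences 34 were positive, with a median of 1.31, and the median site change was 0.42 in mouse and 1.64 in macaque. PCNA, the sliding clamp of DNA polymerase, had 68.8 and 76.3 CPM in mouse calvariae, 98.9 and 107 CPM in mouse tibias, 134, 165 and 133 CPM in macaque calvariae and 57.8, 59.6 and 61.0 CPM in macaque tibias. It was lower in mouse calvariae and higher in macaque calvariae, without overlap (difference 1.78 ± 0.24, edgeR adjusted p = 0.0127). Its mouse site change by itself was not called. The helicase subunit MCM4 had 78.8 and 174 CPM in mouse calvariae, 115 and 118 CPM in mouse tibias, 207 to 271 CPM in macaque calvariae and 52.2 to 71.9 CPM in macaque tibias (difference 1.87 ± 0.42, edgeR adjusted p = 0.0574). KIF23, a motor protein of cell division, had a difference of 1.83 ± 0.37 (edgeR adjusted p = 0.0447). KIF23 lost the call without M5, and MCM4 without M5 or M7. MKI67 and TOP2A were also called, at 1.74 and 1.31. The summed level was 4656 and 9421 CPM in the mouse calvariae M4 and M8, 5420 to 5505 CPM in mouse tibias, 5325 to 6810 CPM in macaque calvariae and 1930 to 2255 CPM in macaque tibias. As for the erythroid sum, M8 lay above and M4 below the mouse tibias, and macaque calvariae lay above macaque tibias. The part of blood cells in these calls was not tested. The calls numbered 1 without M5, 2 without M7, 3 without G2, 4 without G4, 5 without G1 or T1, 25 without T2 and 28 without M8, and the fit with a replicate block gave 24.

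**Figure D3:**
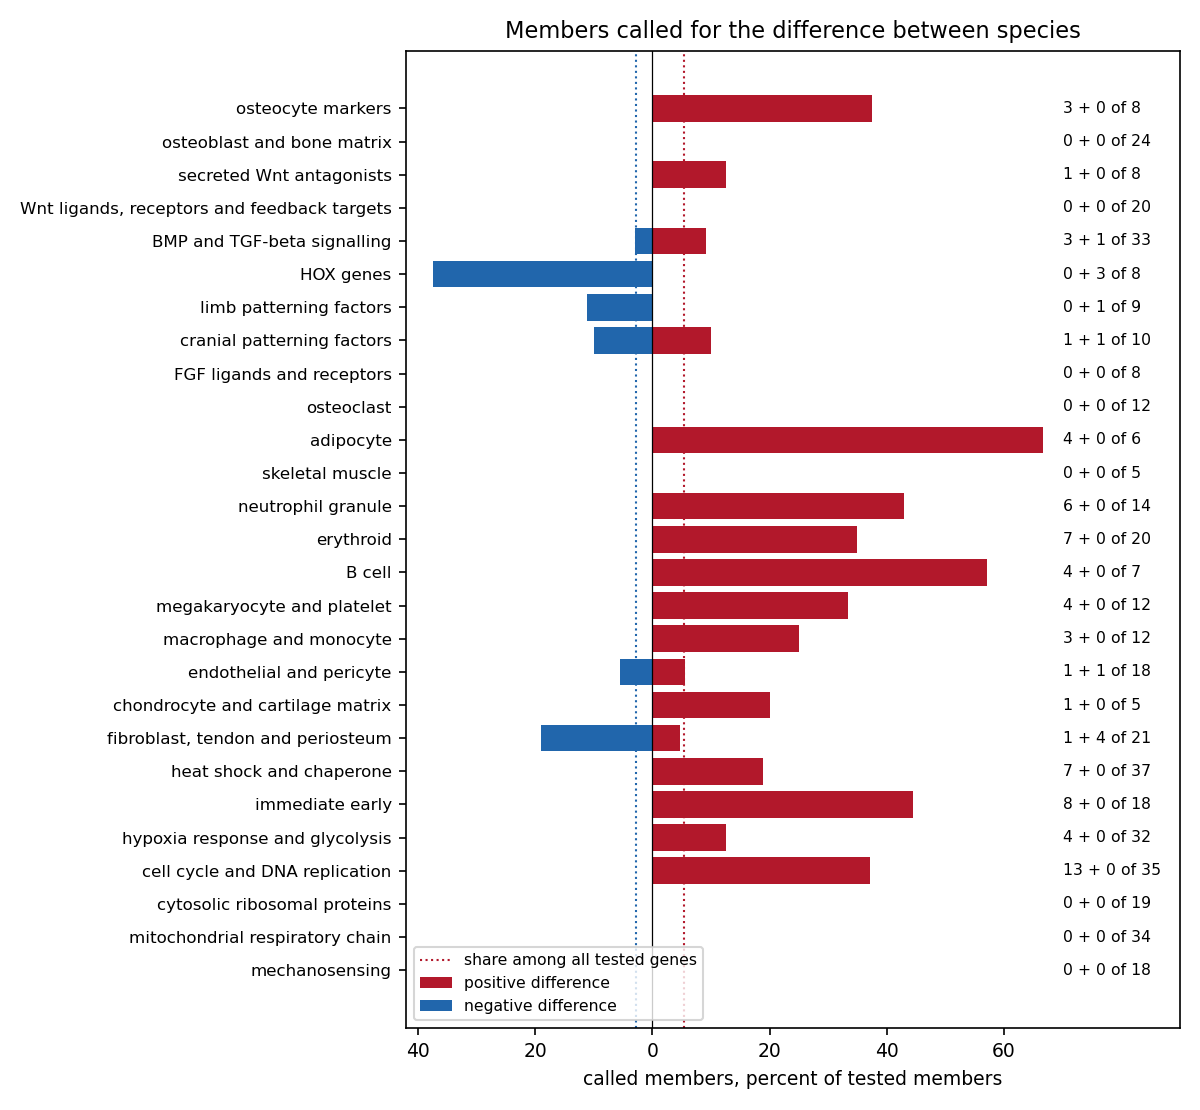
Share of the tested members of each list that were called for the difference between species, with positive differences to the right and negative ones to the left (percent of tested members). Dotted lines mark the shares over all 6070 genes, 5.42% and 2.72%, and the numbers at the right give positive and negative calls of the members tested; blood cell, adipocyte, immediate early and cell cycle lists stand to the right of the line.

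Stress-responsive genes also had positive calls. Among 18 immediate early genes, which respond to signals within minutes, 8 were called as positive (44.4%, beside 5.42% of all genes tested). They were GADD45A, GADD45B, NR4A1, NR4A3, EGR2, EGR3, MYC and MAFF. Their list had a median site change of -0.29 in mouse and 0.48 in macaque. GADD45A, a growth arrest gene, had 121 CPM in both mouse calvariae, 132 and 125 CPM in mouse tibias, 351, 306 and 312 CPM in macaque calvariae and 136, 133 and 106 CPM in macaque tibias. Mouse libraries were nearly level, while each macaque calvaria exceeded each tibia (difference 1.45 ± 0.24, edgeR adjusted p = 0.0258). NR4A3, an orphan nuclear receptor, had 3.67 and 2.37 CPM in mouse calvariae, 3.78 and 4.96 CPM in mouse tibias, 26.0, 18.3 and 24.4 CPM in macaque calvariae and 4.91, 2.18 and 3.73 CPM in macaque tibias (difference 3.18 ± 0.62, edgeR adjusted p = 0.0447). GADD45B differed by 1.77 ± 0.31 (edgeR adjusted p = 0.0356). EGR1 and DUSP1 of the same list were not called, at 0.43 and -0.69.

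Of 37 heat shock and chaperone genes 7 were called, all positive (18.9%, beside 5.42% of all genes tested). They were HSPH1, HSPB1, HSPD1, HSP90AA1, HSPA5, DNAJA4 and BAG3. The median difference of the list was 0.09, near the 0.01 of all tested genes. HSPH1, a nucleotide exchange factor for HSP70, had 103 and 182 CPM in mouse calvariae and 79.4 and 84.0 CPM in mouse tibias. In macaque it had 3636, 3814 and 2167 CPM in calvariae and 443, 438 and 450.1 CPM in tibias. Calvariae were higher in both species, by 0.80 ± 0.31 in mouse and 2.85 ± 0.27 in macaque (difference 2.05 ± 0.40, edgeR adjusted p = 0.0447). HSPD1, the mitochondrial chaperonin, had 179 and 271 CPM in mouse calvariae, 197 and 232 CPM in mouse tibias, 291, 288 and 202 CPM in macaque calvariae and 73.7 to 79.2 CPM in macaque tibias (difference 1.71 ± 0.32, edgeR adjusted p = 0.0408). The small heat shock protein HSPB1 had 9.23 and 5.49 CPM in mouse calvariae, 12.3 and 15.4 CPM in mouse tibias, 306, 216 and 305 CPM in macaque calvariae and 95.2, 48.4 and 114 CPM in macaque tibias. Its sites were in opposite order (difference 2.59 ± 0.51, edgeR adjusted p = 0.0447), although its mouse site change by itself was not called. In the fits without 1 library 4 to 10 heat shock genes and 4 to 10 immediate early genes were called as positive, with 4 of either without M5 and with 4 heat shock and 5 immediate early genes without M7.

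In the list of hypoxia response and glycolysis 4 of 32 genes were called, NDRG1, SLC2A1, ENO1 and HK1, all positive. That is 12.5%, beside 5.42% of all genes tested. SLC2A1, the glucose transporter GLUT1, had 12.5 and 21.2 CPM in mouse calvariae, 29.5 and 24.0 CPM in mouse tibias, 79.5, 94.7 and 152 CPM in macaque calvariae and 48.0, 45.1 and 32.7 CPM in macaque tibias (difference 2.05 ± 0.46, edgeR adjusted p = 0.0631). Sites of the 2 species stood in opposite order, although the mouse site change of SLC2A1 by itself was not called. The calls of SLC2A1 and ENO1 were lost without M5. ENO1, the glycolytic enolase, had only 3 and 7 reads in mouse calvariae and 28 and 17 in mouse tibias, against 5823 or more in each macaque library. Mouse has a near-identical gene copy, Eno1b, that can share its reads, so the mouse site change of ENO1 and its difference of 2.39 ± 0.45 are uncertain. Of 78 respiratory chain genes in the list 34 were tested, and none was called or had an unadjusted p under 0.05. Of 79 cytosolic ribosomal protein genes 19 were tested, and none was called (1 unadjusted p under 0.05). DESeq2 and limma voom gave 0 calls in both lists. RPS4X, a ribosomal gene reached only with locus names replaced, was called as positive (difference 1.33 ± 0.35, edgeR adjusted p = 0.105).

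**Figure D4:**
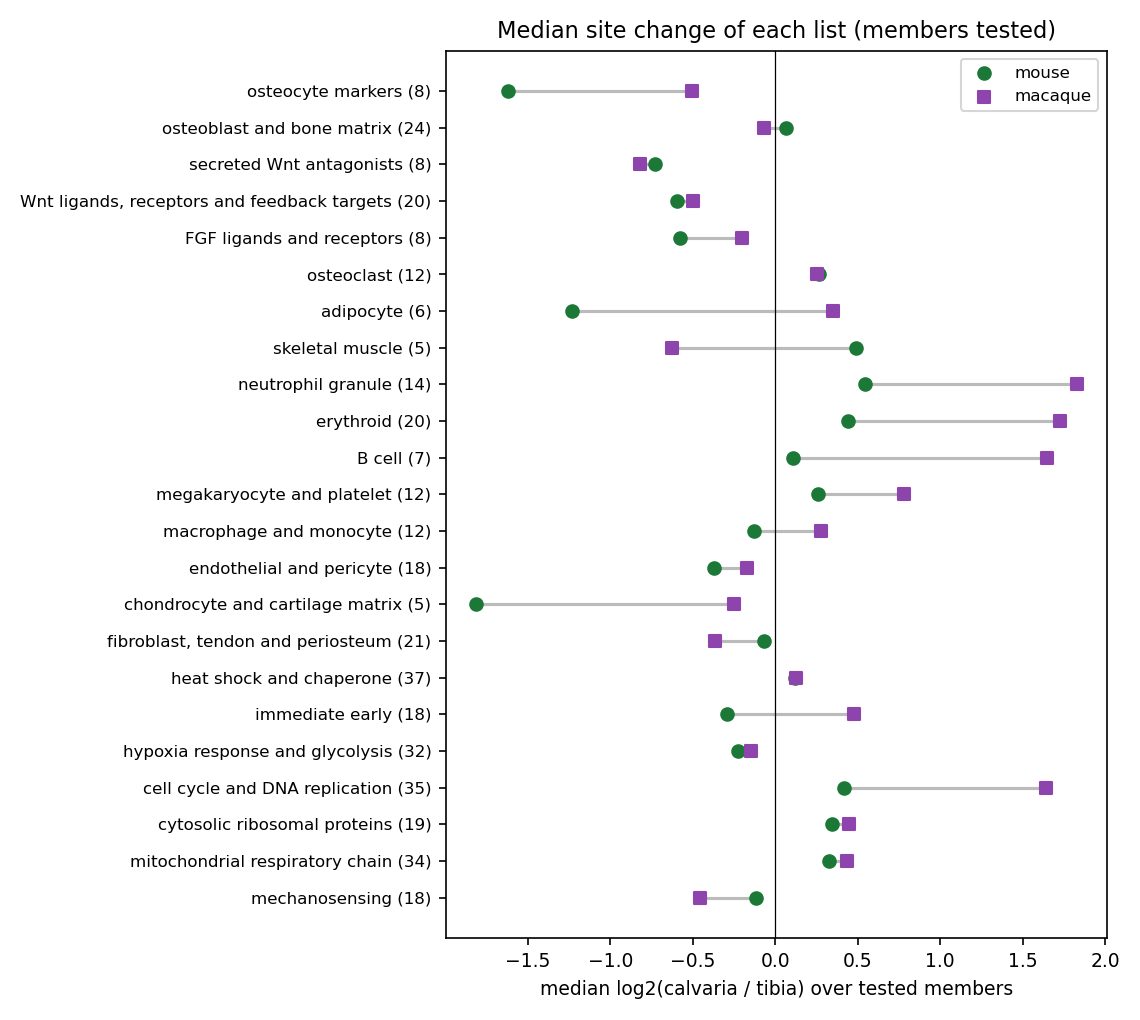
Median site change (log2 of calvaria over tibia) over the tested members of each list, in mouse (green circles) and macaque (purple squares), for the lists in which no member had 3 reads or fewer throughout a group; the number of members is in brackets. Neutrophil granule, erythroid, B cell and cell cycle medians were positive in both species and larger in macaque, the adipocyte and immediate early medians changed sign, and the osteocyte median was more negative in mouse.

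Genes of fibroblasts, tendon and periosteum had 4 negative calls of 21 tested (FBLN1, FAP, POSTN and COL3A1; 19.0%, beside 2.72% of all genes tested) and 1 positive call (the chemokine CXCL12, at 1.56). The median difference was -1.04, but without M4 it turned to 1.00, and it was -0.35 with the replicate block, which gave 5 negative and 3 positive calls, -0.30 with limma voom and -0.22 with a minimum of 1 read. POSTN, periostin of the periosteum, had 898 and 139 CPM in the mouse calvariae M4 and M8, 162 and 148 CPM in mouse tibias, 14.0, 18.3 and 9.97 CPM in macaque calvariae and 65.2, 60.7 and 57.1 CPM in macaque tibias. The mouse excess was in M4 alone, while all macaque calvariae lay below all macaque tibias. The difference was -3.86 ± 0.81 (edgeR adjusted p = 0.0491) and -1.96 without M4, and its call was lost without M5 or M7. FAP, a surface protease of fibroblasts, had 677 and 253 CPM in mouse calvariae, 529 and 484 CPM in mouse tibias, 19.0, 18.8 and 21.2 CPM in macaque calvariae and 94.3, 102 and 141 CPM in macaque tibias (difference -2.39 ± 0.49, edgeR adjusted p = 0.0447). FBLN1, a matrix protein, had 135 and 34.5 CPM in mouse calvariae, 66.4 and 58.2 CPM in mouse tibias, 2.94 to 3.82 CPM in macaque calvariae and 22.5 to 31.0 CPM in macaque tibias (difference -3.32 ± 0.67, edgeR adjusted p = 0.0447). Mouse sites overlapped for both genes, and macaque sites did not. Without M4 the difference was -1.52 for FAP and -2.02 for FBLN1, and without M5 neither was called. The collagen COL3A1 differed by -3.18. The summed level of the 21 genes was 17435 and 6788 CPM in M4 and M8, 18407 to 19945 CPM in mouse tibias, 5878 to 7949 CPM in macaque calvariae and 7905 to 9446 CPM in macaque tibias. Without M5 no gene of the list had a negative call, without M7 there were 2, and without M8 there were 10, while without M4 positive calls numbered 8. CXCL14, a chemokine of stromal cells that had no shared symbol as printed, was called after macaque locus names were replaced. It had 1067 and 849 reads in mouse calvariae, 8544 and 6498 in mouse tibias, 682, 656 and 640 in macaque calvariae and 435, 495 and 727 in macaque tibias. Mouse calvariae lay far below mouse tibias while the macaque sites overlapped (difference 3.29 ± 0.27, edgeR adjusted p = 0.00071).

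TNN, tenascin-W of bone surfaces (mouse chromosome 1, 160085029 to 160153580, - strand), had 985 and 169.9 CPM in the mouse calvariae M4 and M8 and 16.0 and 18.0 CPM in mouse tibias. Macaque libraries had 12.5, 9.49 and 26.9 CPM in calvariae and 26.6, 29.6 and 28.5 CPM in tibias. The mouse calvariae were both higher than the tibias although unequal, and the macaque calvariae tended to the low side with 1 overlapping (difference -5.88 ± 0.90, edgeR adjusted p = 0.0207). Without M4 the difference was -4.11 and still called. MYH8, a myosin of developing muscle, had 630 and 284 reads in mouse calvariae and 0 and 2 in mouse tibias, against 96 to 128 reads in macaque calvariae and 55 to 109 in macaque tibias. Of 5 skeletal muscle genes tested none was called and none had an unadjusted p under 0.05, with 0 calls by DESeq2 and limma voom. The likelihood ratio test and the replicate block gave 1 negative call each, or 2 with crossed mouse pairs, and the fits without M7 and M8 gave 3 and 2. The median difference was -1.13, and it was -3.56 without M7 and -0.27 without M5. The summed level of those 5 genes was 1918 to 4392 CPM in mouse calvariae and 1795 to 3217 CPM in mouse tibias.

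GFRA1, the receptor subunit that binds the neurotrophic factor GDNF (mouse chromosome 19, 58235604 to 58455909, - strand), had 57.2 and 44.5 CPM in mouse calvariae and 21.6 and 24.9 CPM in mouse tibias. The macaque values were 6.34, 7.69 and 5.09 CPM in calvariae and 26.3, 25.2 and 20.7 CPM in tibias. Sites did not overlap in either species and had opposite orders, with changes of 1.13 ± 0.30 in mouse and -1.91 ± 0.27 in macaque and a difference of -3.04 ± 0.40 (edgeR adjusted p = 0.0116). RASL11B, a small GTPase-like protein, gave the same picture with 28.3 and 31.1 CPM in mouse calvariae, 13.3 and 14.8 CPM in mouse tibias, 67.7, 53.6 and 54.9 CPM in macaque calvariae and 122, 128 and 110.0 CPM in macaque tibias (difference -2.11 ± 0.27, edgeR adjusted p = 0.0114). Both were called in each fit without 1 library. RGS5, a pericyte regulator of G protein signalling, was lower in macaque calvariae at 371, 402 and 282 CPM than in macaque tibias at 1233, 1284 and 795 CPM. In mouse it had 28.3 and 36.6 CPM in calvariae and 39.5 and 41.4 CPM in tibias, a change in the same direction and smaller (difference -1.33 ± 0.34, edgeR adjusted p = 0.103). The mouse change by itself was not called here (-0.32 ± 0.27). By contrast, the paper lists RGS5 as changed between sites in mouse, in this direction, with a larger change and a higher mean level. Why the mouse values differ was not tested, and the difference between species depends on them. The call of RGS5 was lost without M5, M7 or G2. PECAM1 of endothelial cells had a positive difference of 1.04 ± 0.30 (edgeR adjusted p = 0.128), and its call was lost without M5, M7, G1, G2 or G3.

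Among the other genes with small p-values and a negative difference, the deubiquitinase USP48 had 235 and 248 CPM in mouse calvariae and 215 and 217 CPM in mouse tibias, but 2.75, 2.03 and 4.03 CPM in macaque calvariae and 23.8, 35.1 and 13.4 CPM in macaque tibias (difference -3.18 ± 0.51, edgeR adjusted p = 0.0245). The splicing regulator RBM5 had 386 and 334 CPM in mouse calvariae, 313 and 326 CPM in mouse tibias, 404, 396 and 410.5 CPM in macaque calvariae and 868, 869 and 769 CPM in macaque tibias (difference -1.22 ± 0.22, edgeR adjusted p = 0.0363). The pseudouridine synthase PUS10, the syntrophin SNTB2, the glutamate transporter SLC1A1, the dynein DNAH8 and the desmosome protein DSP differed by -1.46, -1.34, -4.82, -3.26 and -5.20. DSP had no more than 74 reads and SLC1A1 its highest mouse level at 5.06 CPM, so these sizes rest on few reads. All 7 genes except USP48 lost the call without M5.

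Of the genes with small p-values and a positive difference, SOX17, a factor of arterial endothelium, had 3.92 and 2.08 CPM in mouse calvariae, 9.45 and 13.1 CPM in mouse tibias, 109.7, 94.5 and 100.3 CPM in macaque calvariae and 71.1 to 75.8 CPM in macaque tibias. The sites were in opposite order (difference 2.34 ± 0.37, edgeR adjusted p = 0.0244). PNMA1, an intracellular antigen of neurons, had 4 and 1 reads in mouse calvariae and 24 and 21 in mouse tibias, and 383 to 465 CPM in macaque calvariae against 425 to 481 CPM in macaque tibias. Its positive difference of 2.88 ± 0.44 is set by few mouse reads. MFI2, melanotransferrin, had 0 and 2 reads in mouse calvariae, 297 and 262 in mouse tibias, 25 to 30 in macaque calvariae and 96 to 132 in macaque tibias. It was lower in the calvariae of both species.

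The rat libraries, 1 for each site, were set beside these genes as a ratio of CPM with 1 read added and without a replicate check. They shared the sequencing lane and the rodent dissection with the mouse libraries. Nearness of rat to mouse therefore cannot be told apart from lane or dissection. The log2 ratio of calvaria over tibia in rat was -4.14 for DMP1, -2.96 for PHEX, -5.22 for TG and -3.62 for BAMBI. All of these were on the mouse side, although TG had only 4 rat reads in calvaria, against 159 in tibia. COL2A1 had 0 rat reads in calvaria and 41 in tibia, the mouse order, and no size is given. FRZB had 6 and 23 rat reads, with a ratio between the mouse and macaque changes and nearer to macaque. The rat ratio was -3.09 for GFRA1 and -0.84 for RASL11B, on the macaque side. PPBP, PF4, ITGA2B and ADIPOQ had rat ratios of 1.52, 1.42, 1.28 and -0.80, all between the mouse and macaque changes. Of the 484 called genes listed in the rat table, 291 (60.1%) had a ratio nearer the mouse change than the macaque change, beside 52.2% of all tested genes. Of the 484 genes 17 had no rat read, so that their ratio reflects only the added read and the library totals; over the other 467 the share was 60.4%. By direction the shares were 76.3% of positive calls, beside 76.6% of all tested genes with a positive difference, and 27.0% of negative calls, beside 26.7%. The shares of called genes were thus close to those of all tested genes of the same sign. The median rat ratio over all tested genes was -0.26, and with the ratio centred at it the shares were 64.6% beside 57.8% for positive and 42.1% beside 43.7% for negative differences.

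The called genes also differed in exonic length. The median macaque length was 2342 bases for positive calls, 3917 for negative calls and 2831.5 for all tested genes. Across genes the difference had a Spearman rho of -0.194 with macaque length, the macaque site change one of -0.257 and the mouse site change, with mouse length, one of -0.0675. These describe 6070 genes that share the same 10 libraries. With length offsets in the fit, 439 genes were called, 290 of them positive.

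**Figure D5:**
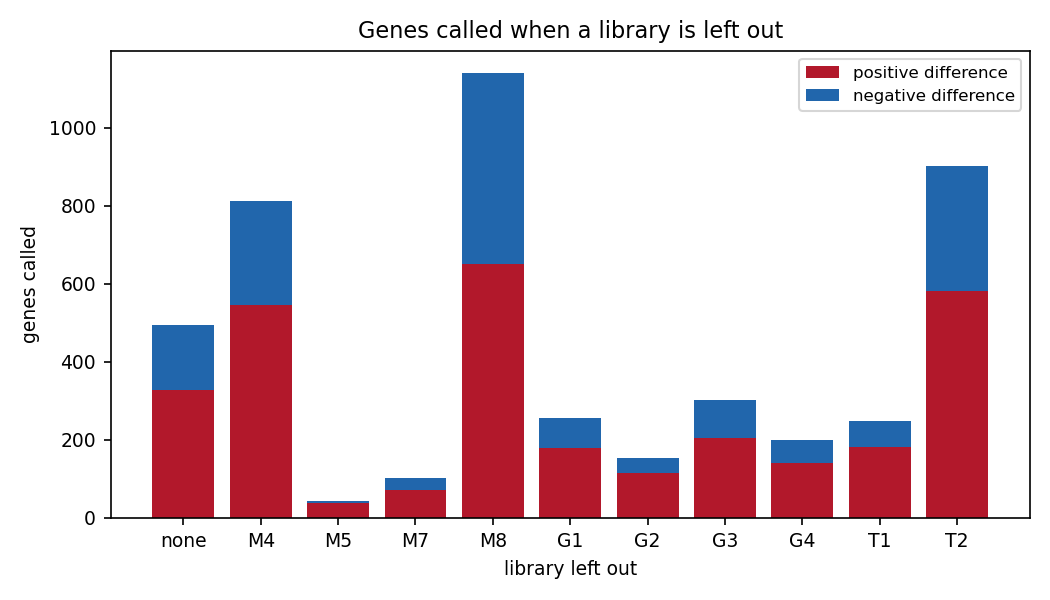
Number of genes called for the difference between species (vertical axis) with all libraries (none) and with each library left out in turn, split into positive (red) and negative (blue) differences. The count of 494 with all libraries fell to 43 without the mouse tibia M5 and rose to 1141 without the mouse calvaria M8.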

How the data were processed

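Bone was powdered under liquid nitrogen and poly(A)+ RNA was sequenced as single reads. The authors mapped the reads per species (the paper names HISAT2, and the submitters' processing notes list BWA 0.7.10-r789) and counted them on merged exons with HTSeq without strand; as deposited, the values are raw counts per gene, and the normalised values beside them were not used. The builds were mm10 for mouse and MacaM for macaque. Rows naming no gene, 0.00261% to 0.0490% of the reads of a mouse or macaque library, were left out, and no other sample column was present. Symbols were the upper-case text before the first comma, with rows of 1 symbol summed; 17111 of 29600 macaque rows carried locus names, so many genes had no shared symbol.

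The 10 libraries entered 1 fit in edgeR 4.0.16 (R 4.3.3), with a term for each of the 4 species by site groups, scaling by TMM within each species (factors of 0.930 to 1.11), a quasi-likelihood test of the contrast between the site changes, and Benjamini-Hochberg adjustment over 6070 genes. The common biological coefficient of variation was 0.254 and the residual degrees of freedom were 6. The standard error is the size of a change divided by the square root of its F statistic. The mouse replicates are pools and the macaque replicates animals. Where all libraries of a group had 3 reads or fewer, reads are given in place of a fitted size.

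Genes were named by rule: the 10 smallest p-values in each direction, the 6 smallest among genes called with opposite changes in both species, up to 3 called members of each list, the 3 smallest with a group at 3 reads or fewer, and 7 genes of earlier interest (SOST, DKK1, FRZB, RGS5, TPBG, ADIPOQ, CXCL14). Some genes that the rule named are not reported here. Further called members of a list were named with their values after these were seen. The comparison, the lists and this rule were chosen with earlier results of these data known. The paper states that skull and tibia were paired but the pairs are not named; assuming consecutive numbers, macaque deviations from the site means correlated across genes at 0.179 to 0.406 within pairs and -0.337 to 0.0645 across them. In data simulated from these libraries 200 of 6070 genes were changed by 2 on the log2 scale. The test called 152 of them, and 19.1% of its calls were unchanged genes. Whether this share holds for the genes called in the real libraries was not tested. DESeq2 1.42.0 and limma 3.58.1 served as alternatives. Without strand, reads cannot be split between a gene and an overlapping exon of the opposite strand, which in mouse 16 named genes have (TG, PNMA1, SOX17, GFRA1, PUS10, SLC1A1, DSP, DNAH8, ID4, BMP4, HOXB3, VCAM1, HSPD1, GADD45A, NDRG1 and SLC2A1). Mouse coordinates are from GENCODE vM21 (GRCm38), and the newer macaque RefSeq annotation was used for names only. No sequence is printed.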

Additional observations from a re-analysis of the deposited data

Results flagged for a closer look

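The count of 494 genes and the genes below are listed because the difference between the site changes of mouse and macaque was itself tested and passed. All sizes are macaque minus mouse on the log2 scale, from edgeR's quasi-likelihood test, and no explanation is weighed for them.

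Positive differences above 3 were those of COL2A1 (5.73), AQP7 (4.05), ADIPOQ (4.02), PPBP (3.84), PF4 (3.61), FRZB (3.51), TG (3.31) and NR4A3 (3.18). Those between 2 and 3 were PNMA1 (2.88), DMP1 (2.71), FABP4 (2.61), HSPB1 (2.59), FOXC2 (2.41), ENO1 (2.39), BANK1 (2.38), SOX17 (2.34), HMOX1 (2.24), RHAG (2.07), HSPH1 (2.05) and SLC2A1 (2.05). The smaller positive ones were MS4A1 (1.96), PADI4 (1.92), ITGA2B (1.88), ID4 (1.88), MCM4 (1.87), KIF23 (1.83), PCNA (1.78), GADD45B (1.77), TNFRSF11B (1.73), HSPD1 (1.71), PHEX (1.69), NDRG1 (1.69), EPOR (1.66), ITGAM (1.64), BAMBI (1.54), BLNK (1.48), AIF1 (1.46), GADD45A (1.45), VCAM1 (1.41), SRGN (1.39) and PECAM1 (1.04).

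Negative differences were those of TNN (-5.88), DSP (-5.20), ALX1 (-4.94), SLC1A1 (-4.82), HOXB3 (-4.29), POSTN (-3.86), HOXA5 (-3.52), FBLN1 (-3.32), DNAH8 (-3.26), USP48 (-3.18), GFRA1 (-3.04), HOXA9 (-2.39), FAP (-2.39), RASL11B (-2.11), PUS10 (-1.46), SNTB2 (-1.34), RGS5 (-1.33), RBM5 (-1.22) and BMP4 (-1.08). For MYH8, MFI2 and IRX1, where a group had 3 reads or fewer in each library, no size is given, and the adjusted p-values were 0.00619, 0.00916 and 0.0447.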

How the results depend on the processing

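The 494 calls (329 positive) became 81 (56 positive) at an adjusted p under 0.05, 780 (497 positive) with edgeR's likelihood ratio test and 759 with DESeq2. With a replicate block for the assumed pairs of skull and tibia they became 790 (545 positive), of which 485 were among the 494. Leaving out 1 library gave 43 to 1141 calls and 38 to 651 positive calls, and the sign of 2 called genes changed in some of these fits. Without M8 1141 genes were called and without M5 43, and the cause was not tested. A fit that leaves 1 mouse library at a site assumes that it varies like the other groups. The count stayed within 1.5 times of 494 under TMM factors over all 10 libraries (475), RLE factors (488), library size alone (499), a minimum of 1 read (446) or a mean of 50 reads (502), no zero reads (478), limma voom (427), crossed mouse pairs (709), G libraries only (552), replaced locus names (657), symbols with 1 row (460), length offsets (439) and a size over 1.1 on the log2 scale (364). The count of called genes whose rat ratio lay nearer to mouse was 289 with 0.5 and 295 with 5 reads added, against 291, 277 with the ratio centred and 282 over genes with rat reads, the last 2 chosen after the data were seen, as were the counts per list in each of these fits. Over the 64 named genes the direction did not change in any fit. In the other fits than those without 1 library, the G libraries only among them, 1029 results kept their side of the threshold and 33 lost the call, 22 of them at an adjusted p under 0.05. In fits without 1 library, 527 kept it and 113 lost the call, 37 of them without M5.

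Mouse had 2 libraries per site and 2 pools of animals behind them, and the 2 mouse calvariae differed the most. Species, lane, genome, annotation and dissection cannot be told apart. Genes without a shared printed symbol were not tested, and fold changes of genes with few reads in a group are poorly fixed. In the simulated data 200 of 6070 genes were changed, all by the same size. Unchanged genes made up 19.1% of the calls there, 28.4% with the likelihood ratio test, 28.7% with DESeq2 and 14.0% with limma voom. The number and sizes of true changes in the real libraries are not known. These shares therefore do not give the share of false calls among the genes called in the real libraries.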

Other observations

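Genes outside the lists were among the 40 called in every fit without 1 library, and they were chosen for naming after their values were seen. They included WDFY4 (1.88 ± 0.31) and CYBB (1.93 ± 0.33), which encodes the catalytic subunit of the phagocyte oxidase, the kinase PIM1 (2.14 ± 0.35), the growth factor HBEGF (2.67 ± 0.44), the cytidine deaminase CDA (2.70 ± 0.45) and ODC1, the first enzyme of polyamine synthesis (2.30 ± 0.42). All of these differences were positive. HAS1, a hyaluronan synthase, had the largest positive difference among genes with more than 3 reads in some library of every group (5.90 ± 1.11), with a site change of -3.36 in mouse and 2.54 in macaque. It had only 0.51 and 1.33 CPM in mouse calvariae and 0, 1.79 and 1.02 CPM in macaque tibias, so this size rests on few reads. CLU, which encodes clusterin, was lower in calvariae of both species, by -3.22 in mouse and -1.03 in macaque (difference 2.19 ± 0.41, edgeR adjusted p = 0.0418). The muscarinic receptor CHRM3 changed in opposite directions, by 2.42 in mouse and -1.06 in macaque, with only 0.22 and 0.67 CPM in mouse tibias.

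Some list members came into reach only when macaque locus names were replaced by symbols, and those below were chosen after their values were seen. CFD, adipsin of adipocytes, had a site change of -5.43 in mouse and 1.24 in macaque (difference 6.67 ± 1.19, edgeR adjusted p = 0.0369). The mouse calvariae M4 and M8 had 106 and 8 reads of CFD, so its size is poorly fixed. DNAJB1, a cofactor of HSP70, had 0.19 in mouse and 2.92 in macaque (difference 2.73 ± 0.40, edgeR adjusted p = 0.0164). ORM1, an acute phase protein, had 0.88 and 2.83 (difference 1.95 ± 0.28, edgeR adjusted p = 0.0164), and BIRC5, survivin of dividing cells, had 0.37 and 2.24 (difference 1.87 ± 0.34, edgeR adjusted p = 0.0372). The ligand WNT10B had 0.64 in mouse and -2.34 in macaque (difference -2.98 ± 0.57, edgeR adjusted p = 0.042).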
